A study of Mus musculus with 4 samples.

Results

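Mras, Eras, Nras, Hras, Rras and Rras2 encode small GTPases of the Ras family, and Shoc2 encodes a scaffold that works with the MRAS protein. They were followed in mouse embryonic stem cells (ES cells, pluripotent cells kept in culture with leukaemia inhibitory factor, LIF) with a UTX knockout (KO) and with a UTX conditional knockout (cKO). The members were taken as every probe set that the annotation of the Affymetrix mouse genome array gives to only 1 gene, that gene being one of the 7 listed. This gave 11 probe sets for 6 genes, of 34945 probe sets and 18193 genes in all, and Hras was not analysed here. The members were chosen with KO and cKO values of these arrays in view, above all the high KO signal of Mras, so their differences are described below without a test.

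The 4 arrays held RNA of KO lines 1 and 2 and of cKO lines 1 and 2, with 1 Affymetrix array for each line. UTX, encoded by Kdm6a, is a histone demethylase that removes methyl groups from lysine 27 of histone H3. All 4 lines were grown on irradiated fibroblast feeders in medium with serum and LIF, passaged on gelatin to clear the feeders, and collected from gelatin. The labels call the cKO lines independent. They do not say how the KO lines were made or whether RNA came from separate cultures, so the p-values below rest on how much these 4 samples vary, and some of that variation may be technical. Having 2 lines in each group limits the precision of every value.

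Ras GTPases are switches on the inner face of the cell membrane. Exchange factors such as SOS load them with GTP, GTPase-activating proteins return them to the GDP state, and in the GTP state they bind effectors, among them the RAF kinases that start the MEK and ERK cascade and the PI3 kinases. MRAS in its GTP state assembles with SHOC2 and a catalytic subunit of protein phosphatase 1 (PP1), and this complex removes an inhibitory phosphate from RAF. ERAS is a Ras protein found in mouse ES cells that is active without a mutation and signals through PI3 kinase. In ES cells FGF and ERK signalling prepares the exit from the naive pluripotent state.

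The region before the start site is shown for Mras, the member with the largest difference between the groups, and for Eras, the ES cell Ras, whose groups overlapped. Both sequences are RefSeq windows of 250 bases that end at the base before the annotated start (GRCm38.p6), on the minus strand, and capitals mark GC boxes (GGGCGG, or CCGCCC on the other strand). The Mras window lies at chr9:99436713-99436962 and the Eras window at chrX:7928608-7928857.
Mras: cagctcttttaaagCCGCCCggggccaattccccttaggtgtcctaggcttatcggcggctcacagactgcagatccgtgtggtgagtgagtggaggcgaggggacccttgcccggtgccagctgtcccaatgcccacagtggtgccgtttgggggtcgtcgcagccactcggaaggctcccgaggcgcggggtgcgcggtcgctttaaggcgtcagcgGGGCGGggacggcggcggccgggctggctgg
Eras: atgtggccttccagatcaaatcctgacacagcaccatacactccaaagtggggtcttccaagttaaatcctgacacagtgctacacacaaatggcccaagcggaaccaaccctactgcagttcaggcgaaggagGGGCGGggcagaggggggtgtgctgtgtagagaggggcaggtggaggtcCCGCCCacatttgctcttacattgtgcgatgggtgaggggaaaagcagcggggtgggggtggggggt

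The Mras window held 24 CpG dinucleotides at a GC content of 68.4%, and the Eras window held 6 CpG dinucleotides at 58.0%. Over 32851 windows of the same length the median was 6 CpG dinucleotides, with quartiles of 2 and 16, so Mras lay above the upper quartile and Eras at the median. All 7 genes matched the table, with 10 windows. The Hras window held 24 CpG dinucleotides, the Nras and Rras2 windows 14 each, the Shoc2 windows 15 and 20, and the Rras windows 1, 3 and 7. GC boxes were present in 6 of the 10 windows, against 32.7% of all windows, and both the Mras and the Eras window held 2 of them. The letters CACGTG occurred in 1 of the 10 windows (Nras), against 6.02% of all windows, and TTCNNNGAA in 1 (Rras), against 7.02%. These matches describe the letters in the windows and are not evidence of binding.

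The arrays and the cells were checked first. The median signal was 81.6 and 64.9 in KO lines 1 and 2, and 76.6 and 64.4 in cKO lines 1 and 2. It was thus higher in line 1 within both groups. Kdm6a, the targeted gene, read 265 and 198 in KO lines 1 and 2, against 658 and 415 in cKO lines 1 and 2. Both KO signals were lower, and since the positions of its probes were not used here, these values check the labels only in part. The 8 pluripotency markers summed to 87946 and 80538 in the KO lines and to 76130 and 75010 in the cKO lines. All 8 lay above the filter level, 5 with a positive and 3 with a negative log2 difference. Limma called 0 of them at an adjusted p under 0.05, with 3 at an unadjusted p under 0.05. These 3, Sox2, Zfp42 and Esrrb, were higher in KO without overlap. Their log2 differences were 0.37, 0.51 and 0.94 (limma adjusted p = 0.0994, 0.102 and 0.115). The 14 fibroblast markers, which feeder cells carry, summed to 7808 and 8769 in the KO lines, against 22523 and 15590 in the cKO lines. Acta2 and Tagln made up most of each sum. Acta2 read 4163 and 4809 in the KO lines, against 10141 and 6210 in the cKO lines. Tagln read 2230 and 2469 in the KO lines, against 8938 and 7092 in the cKO lines. Of the 14 fibroblast markers 9 were tested, 3 fell (Tagln, Col5a1 and Thy1) and all 9 had a negative log2 difference. Both KO signals lay under the filter level for 6 of the 14, and both cKO signals for 2. Of 7 primitive endoderm markers 6 lay below the filter level, and the other one, Dab2, read 222 and 169 in the KO lines, against 618 and 399 in the cKO lines (log2 difference -1.34, limma adjusted p = 0.0576, with an unadjusted p under 0.05). Of 6 trophoblast markers 4 were tested and 0 called in limma, with 1 at an unadjusted p under 0.05. Fewer cells of a type and less RNA per cell cannot be told apart in such samples.

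Mras stood far higher in the KO lines. Its brighter probe set (1449590_a_at) read 1554 and 1509 in KO lines 1 and 2, against 336 and 202 in cKO lines 1 and 2. Both KO signals were high and close together, both cKO signals were low, and the groups did not overlap. The means were 1532 ± 31.6 in KO and 269 ± 94.4 in cKO (SD, n = 2 each), a ratio of 5.69. The smallest ratio of a KO to a cKO line was 4.49 and the largest 7.68. The KO lines differed from each other by a factor of 1.03, and cKO line 1 was 1.66 times as high as cKO line 2. On the log2 scale, after adding 4.79 to each signal, the difference KO minus cKO was 2.53, or 2.19 between the lines numbered 1 and 2.87 between those numbered 2, although no label ties a KO line to a cKO line.

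The second Mras probe set (1453419_at) had the same direction and a smaller difference. It read 635 and 418 in KO lines 1 and 2, against 304 and 120 in cKO lines 1 and 2. Again the groups did not overlap, and line 1 was the higher one within both. Its means were 527 ± 153 in KO and 212 ± 130 in cKO (SD, n = 2 each), a ratio of 2.49 and a log2 difference of 1.41. The lowest KO signal was 1.38 times the highest cKO signal, so this probe set separated the groups by less than its spread within cKO, where line 1 was 2.54 times as high as line 2. With the mean of both probe sets the log2 difference for Mras was 1.97. The summed signal of the fibroblast markers, mostly that of Acta2 and Tagln, was lower in KO, where Mras was higher. Of the 14 markers 9 were lower in KO without overlap. Prrx1, below the filter level, was higher (60.1 and 53.8 in the KO lines, against 30.7 and 31.0 in the cKO lines). The part of these markers in the Mras values was not tested. Without cKO line 1, where that sum was highest, the log2 difference of Mras was 2.89, and without cKO line 2 it was 2.17.

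**Figure D1:**
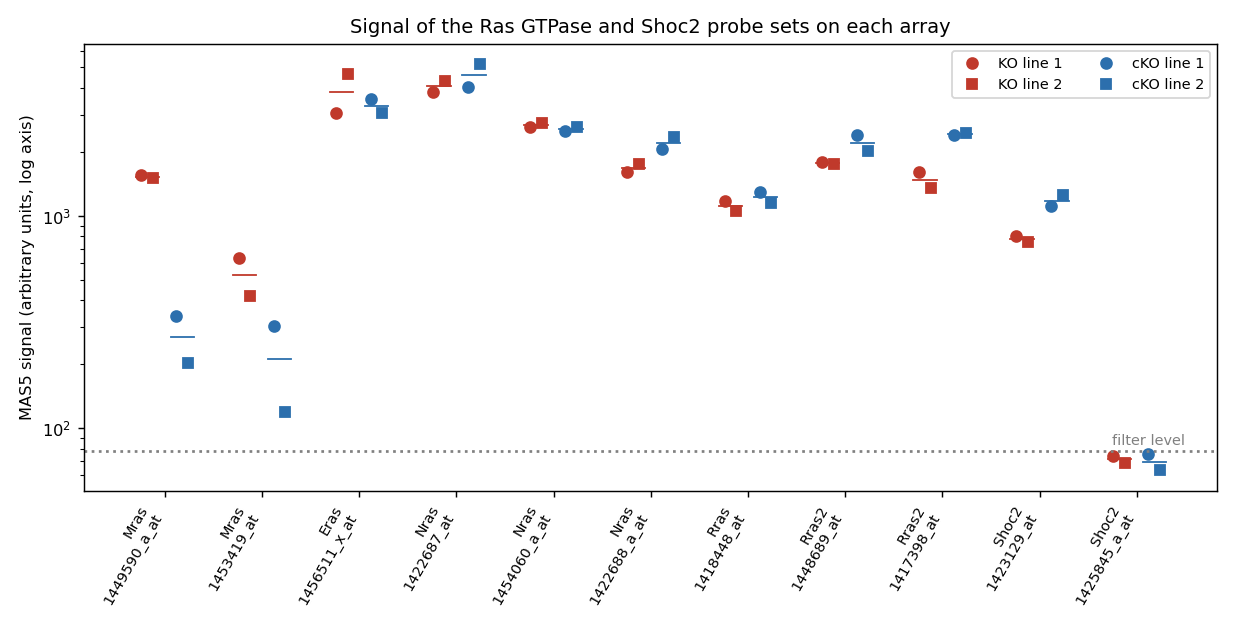
MAS5 signal (log axis) of the 11 probe sets of Mras, Eras, Nras, Rras, Rras2 and Shoc2 on each array, with KO lines in red and cKO lines in blue; circles are line 1, squares line 2, short bars the group means (n = 2 each) and the dotted line the filter level of 77.7. Both KO points lie above both cKO points for the 2 Mras probe sets, from 1509 to 1554 against 202 to 336 for the brighter one.

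Eras was bright in all 4 lines and did not separate the groups. Its single probe set (1456511_x_at) read 3038 and 4636 in KO lines 1 and 2, against 3554 and 3051 in cKO lines 1 and 2. KO line 2 was the highest array and KO line 1 by a small margin the lowest, so the cKO signals lay between the KO signals. The means were 3837 ± 1130 in KO and 3302 ± 356 in cKO (SD, n = 2 each), with a log2 difference of 0.19. KO line 2 was 1.53 times as high as KO line 1, a wider gap than the ratio of 1.16 between the group means. The suffix x in the name of this probe set marks probes that may also match other sequences, so part of its signal may come from other transcripts. With 1 array left out the log2 difference ran from -0.12 to 0.49 and so changed sign.

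Nras, one of the classical Ras genes, was measured by 3 probe sets that did not agree on a direction. The brightest (1422687_at) read 3813 and 4326 in KO lines 1 and 2, against 4029 and 5174 in cKO lines 1 and 2, a log2 difference of -0.17 with overlapping groups. A second (1454060_a_at) read 2609 and 2749 in the KO lines, against 2497 and 2622 in the cKO lines, a log2 difference of 0.07 with overlapping groups. The ratio of KO to cKO means was 0.884 for the first and 1.05 for the second. In contrast, the third (1422688_a_at) read 1605 and 1746 in the KO lines, against 2069 and 2354 in the cKO lines, with both KO signals lower and a log2 difference of -0.40.

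Rras and Rras2 encode the R-Ras proteins, which act in cell adhesion as well as in growth signalling. Rras had 1 probe set (1418448_at), with signals of 1177 and 1059 in KO lines 1 and 2, against 1301 and 1151 in cKO lines 1 and 2. The groups overlapped, line 1 was higher within both, and the log2 difference was -0.13. Both Rras2 probe sets were lower in KO without overlap. The brighter one (1448689_at) read 1792 and 1762 in the KO lines, against 2390 and 2028 in the cKO lines, with means of 1777 ± 21.2 and 2209 ± 256 (SD, n = 2 each) and a log2 difference of -0.31. The other (1417398_at) read 1607 and 1354 in the KO lines, against 2392 and 2465 in the cKO lines, a log2 difference of -0.72. The size of the Rras2 difference thus depended on the probe set, with ratios of KO to cKO means of 0.804 and 0.61, while the direction did not.

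Shoc2 was lower in KO by its bright probe set. This probe set (1423129_at) read 806 and 752 in KO lines 1 and 2, against 1111 and 1249 in cKO lines 1 and 2. Both KO signals were lower than both cKO signals, and lines of the same group differed by a factor of 1.07 in KO and 1.12 in cKO. The means were 779 ± 37.9 in KO and 1180 ± 97.7 in cKO (SD, n = 2 each), a log2 difference of -0.59. The other Shoc2 probe set (1425845_a_at) stayed between 63.4 and 75.4 on all 4 arrays, below the filter level of 77.7, and had a log2 difference of 0.04. Shoc2 and its partner Mras thus differed in opposite directions between the same lines, by -0.59 and 2.53 on the log2 scale.

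Of the 11 member probe sets, 10 lay above the filter level. Both KO signals were above both cKO signals for 2 of these 10, against 21.1% of all 18797 probe sets above that level, and below both for 4, against 19.7%. Every KO line was at least 2-fold above every cKO line for 1 of the 10, the brighter Mras probe set, against 0.261% of probe sets, and at least 2-fold below for 0, against 0.99%. Since the members were chosen on this contrast, nothing is read from these shares.

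**Figure D2:**
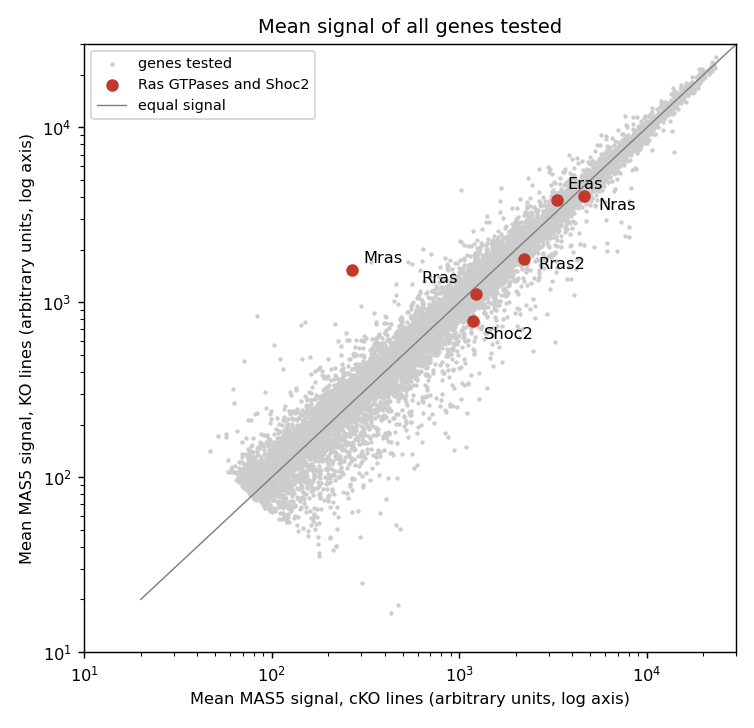
Mean MAS5 signal in the KO lines against the mean in the cKO lines (both axes log, n = 2 lines each) for the 10916 genes tested, in grey, with the 6 members in red and a line of equal signal. Mras, at 1532 in KO and 269 in cKO, lies far above the line, Shoc2 and Rras2 lie below it, and Eras, Nras and Rras lie close to it.

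The genes with the pattern most like that of Mras were sought over the 4 arrays, by the Euclidean distance between log2 levels centred on each gene's mean. The nearest of the other genes tested were Msln (mesothelin, a cell surface protein) at a distance of 0.35 and Krt17 (a keratin) at 0.41. Serpinb6c (a serpin) at 0.51, Gjb1 (a connexin) at 0.64 and Fgf18 (a fibroblast growth factor) at 0.67 followed. The median gene lay at 2.59, a distance that mostly reflects the size of the Mras difference itself. The cKO means of Msln (71.3) and Gjb1 (63.2) lay under the filter level of 77.7. Krt17, for example, read 655 and 884 in KO lines 1 and 2, against 180 and 122 in cKO lines 1 and 2. Like Mras, all 5 were high in both KO lines and lower in cKO line 2 than in cKO line 1. Nearest to Eras were Ltn1 (a ubiquitin ligase) at 0.08, Xpa (a DNA repair factor) at 0.09, Nfkbiz (a regulator of NF-kappa-B) at 0.09, Tceanc2 at 0.09 and Rint1 at 0.11, where the median gene lay at 0.61. Ltn1 read 745 and 1126 in the KO lines, against 894 and 796 in the cKO lines. These 5 shared with Eras a high value in KO line 2 alone, a pattern that rests on 1 array.

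**Figure D3:**
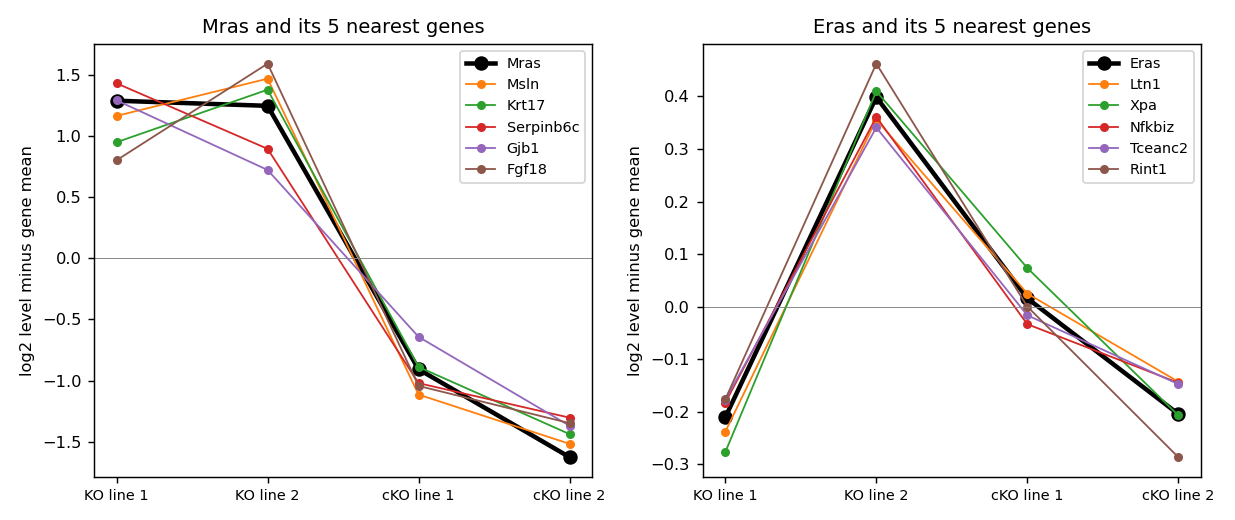
Log2 level minus the gene's mean on each of the 4 arrays for Mras (left, black) and Eras (right, black) with the 5 genes nearest to each in colour. The Mras group is high in both KO lines and low in both cKO lines, and the Eras group is high in KO line 2 alone.

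The other genes of the Ras pathway were read from 9 lists by role, 117 genes in all, of which 109 had a probe set and 88 were tested. In limma, with p-values adjusted over all 10916 genes, 2 of the 88 passed, against 2.2% of all genes. Of these 1 rose, against 0.632% of all genes called higher in KO, and 1 fell, against 1.57% of all genes called lower. At an unadjusted p under 0.05, 4 were higher and 8 lower, or 13.6% of the 88, against 13.8% of all genes tested. The median log2 difference over the 88 genes was -0.07, against 0.01 over all genes tested. Of all genes tested 48.6% had a negative log2 difference, a share to set beside the counts by sign below. The gene that rose was Tiam1, an exchange factor for the GTPase Rac that binds active Ras, and the gene that fell was Spred3, a SPRED protein, a family of inhibitors of Ras and ERK signalling.

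Tiam1 read 1740 and 1586 in KO lines 1 and 2, against 874 and 836 in cKO lines 1 and 2. Both KO signals were close to each other and well above both cKO signals. The log2 difference was 0.95 (SE 0.15, limma adjusted p = 0.0285). The call ended without cKO line 2 (0.92, adjusted p = 0.0513), with centring on the median (0.91, adjusted p = 0.0797), in a fit that ignores the variance trend (adjusted p = 0.0739), and when all 3 of its probe sets were averaged (0.81, adjusted p = 0.235), the other 2 of which lay below the filter level. Over all alternatives the adjusted p ran from 0.00474 to 0.235.

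Spred3 read 62.7 and 81.0 in KO lines 1 and 2, against 196 and 228 in cKO lines 1 and 2. The groups did not overlap, but the KO mean of 71.8 lay under the filter level of 77.7, so the size of the fall is uncertain. The log2 difference was -1.51 (SE 0.28, limma adjusted p = 0.0483), close to the threshold. The call ended without cKO line 1 (-1.61, adjusted p = 0.109), without cKO line 2 (-1.40, adjusted p = 0.234), with quantile normalization (-1.58, adjusted p = 0.0611), with no filter (adjusted p = 0.126) and in a fit that ignores the variance trend (adjusted p = 0.0547). It ended too with every probe set tested on its own (adjusted p = 0.055), and with the lower 60% left out Spred3 was not tested. Over the alternatives that tested it, the adjusted p ran from 0.00873 to 0.234.

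Genes that switch Ras on or off did not pass the test. Of 8 exchange factors 3 were tested and all 3 had a positive log2 difference, with a median of 0.38. Sos1, an exchange factor that growth factor receptors recruit, read 971 and 903 in the KO lines, against 736 and 702 in the cKO lines (log2 difference 0.38, limma adjusted p = 0.333), and Rasgrp2 had a log2 difference of 0.47 (adjusted p = 0.637). Among the exchange factors 1 had an unadjusted p under 0.05. Of 10 GTPase-activating proteins 8 were tested, 3 with a positive and 5 with a negative difference (median -0.16), and none had an unadjusted p under 0.05 in limma. Rasa3 was at -0.56 (adjusted p = 0.453) and Rasa2 at -0.28 (adjusted p = 0.562). Of 7 receptor adaptors 5 were tested and 4 were negative (median -0.21), with Shc1 at -0.32 (adjusted p = 0.429) and Ptpn11, the phosphatase SHP2, at -0.28 (adjusted p = 0.585), and none had an unadjusted p under 0.05.

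The kinases below Ras and the partners of SHOC2 did not pass either. Of 11 RAF, MEK and ERK kinases and scaffolds 6 were tested and 5 were negative, with a median log2 difference of -0.19 and 1 gene at an unadjusted p under 0.05 in limma. Braf, a RAF kinase, read 968 and 906 in the KO lines, against 1154 and 1475 in the cKO lines (-0.48, adjusted p = 0.284), and Cnksr1, a scaffold, was at -0.56 (adjusted p = 0.423). All 6 genes of the SHOC2-PP1 list were tested, with a median of 0.23 and none at an unadjusted p under 0.05. Ppp1cb, a PP1 catalytic subunit found in the SHOC2 complex, read 4716 and 2811 in the KO lines, against 4082 and 2182 in the cKO lines, so that the lines of a group differed more than the groups. Scrib, which binds SHOC2, was at 0.17 (adjusted p = 0.706), and Lztr1, an adaptor for the degradation of several Ras proteins including MRAS, at 0.40 (adjusted p = 0.584).

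Of 17 other effectors 13 were tested, with Tiam1 as the 1 called gene and a median log2 difference of 0.11. Of the 13 genes for lipid processing and trafficking of Ras all were tested, with a median of -0.06, 0 called in limma and 2 at an unadjusted p under 0.05. These were Zdhhc9, a palmitoyltransferase of Ras proteins, which read 299 and 423 in the KO lines, against 583 and 613 in the cKO lines (-0.74, adjusted p = 0.159), and Lypla1, a depalmitoylating enzyme, at 0.44 (adjusted p = 0.301). Zdhhc9 passed without KO line 2 (-0.99, adjusted p = 0.0492).

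ERK feedback and immediate target genes report on the output of the pathway. Of 17 listed 16 were tested and 11 had a negative log2 difference, against 48.6% of all genes tested. The median of the 16 was -0.27, with Spred3 as the 1 called gene. The feedback inhibitor Spry2 was at 0.05 (limma adjusted p = 0.939) and Dusp6, an ERK phosphatase, at -0.34 (adjusted p = 0.70). The ERK-responsive transcription factors Etv4 and Etv5 were at 0.09 (adjusted p = 0.869) and 0.03 (adjusted p = 0.969), and Dusp4, another ERK phosphatase, at -0.59 (adjusted p = 0.356). Larger negative values were those of Dusp5 (-1.76, adjusted p = 0.483) and of the early growth response factor Egr1 (-0.79, adjusted p = 0.678), whose lines of the same group lay far apart. Ier3, an immediate early gene, was at -0.53 (adjusted p = 0.483), and Spry4 had the highest value of the list at 0.43 (adjusted p = 0.383). These genes were chosen as examples after their values were seen.

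Of 28 other Ras-subfamily GTPases 18 were tested and 14 had a negative log2 difference, against 48.6% of all genes tested. The median of the 18 was -0.18, with 0 called in limma and 4 at an unadjusted p under 0.05. Rap1b, a GTPase that controls integrin adhesion, read 4391 and 3806 in the KO lines, against 5754 and 4948 in the cKO lines (-0.38, adjusted p = 0.26), and Rasl11b was at -0.86 (adjusted p = 0.27). Across the 88 tested genes of the 9 lists the differences ran from -1.76 for Dusp5 to 0.95 for Tiam1. Both Mras probe sets, at 2.53 and 1.41, lay outside that range. Since Mras was chosen for its high KO signal on these arrays, nothing is read from this.

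**Figure D4:**
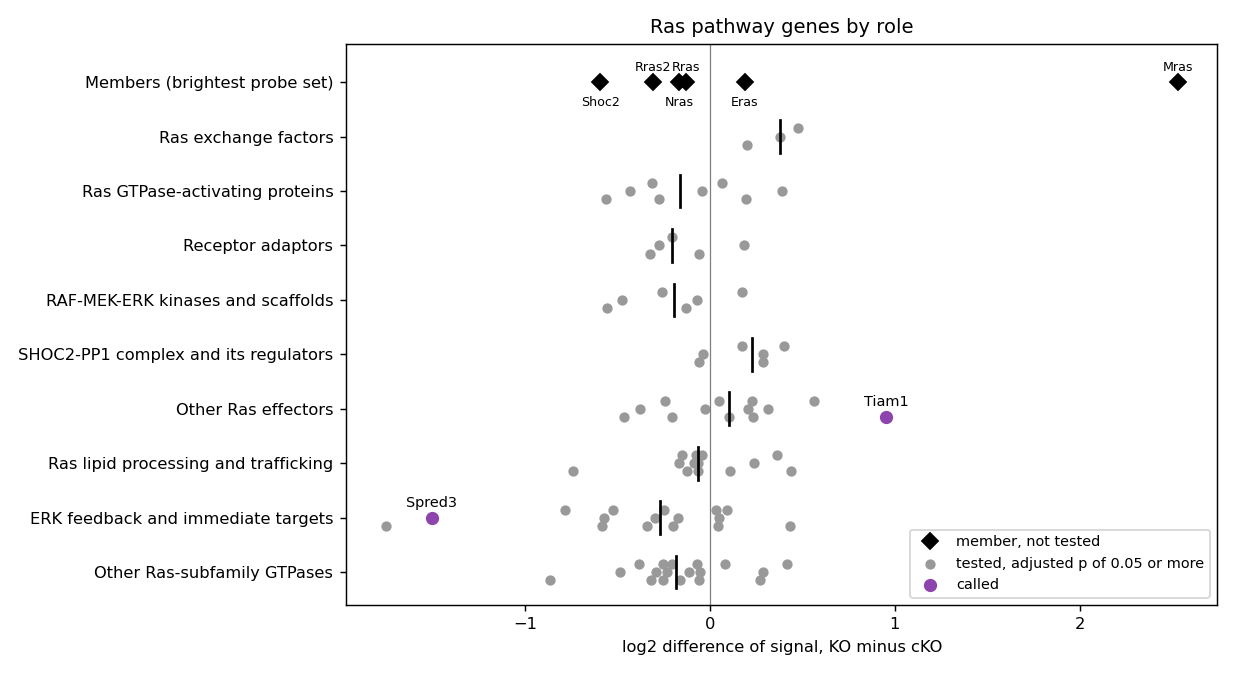
Log2 difference of signal, KO minus cKO, for the 6 members (diamonds, not tested) and the 88 tested pathway genes by role (dots), with the median of each list as a vertical bar and called genes in purple. Mras, chosen for its high KO signal, stands at 2.53, Tiam1 at 0.95 and Spred3 at -1.51, while most other genes lie near 0.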

How the data were processed

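The authors deposited linear intensity values, 1 for each probe set on each array, from MAS5 according to the submitters' processing notes. The MAS5 version and settings are not given in the sources used here. With 2% trimmed at both ends, the mean signal of each array was 500, which shows a scaling to a common mean. Detection calls were not used.

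Of 45101 probe sets, 34945 named 1 gene, 34741 of them with a current symbol through an Entrez identifier (RefSeq, GRCm38.p6). The probe set with the highest mean log2 level stood for each of 18193 genes, and the lower 40% (below a signal of 77.7) were left out, leaving 10916. Signals were converted to log2(signal + 4.79), 4.79 being the 10th percentile of all values, which understates the change of dim genes. The comparison of KO with cKO used lmFit and eBayes with a variance trend (limma 3.58.1, R 4.3.3) and Benjamini-Hochberg adjustment, with calls at an adjusted p under 0.05. The procedure was tested on simulated data with independent errors on the 4 arrays. The simulation left out the correlation between deviations of same-numbered lines (r = 0.52), so it does not check the calls under that correlation. Figures and summaries used Python 3.11.15.

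The members and lists were chosen with earlier results of these data known, and the members were not tested. Genes named are all members, Kdm6a, for each list up to 4 called genes of largest difference or else up to 2 of smallest p, and the 5 genes nearest to Mras and to Eras. Others are examples chosen after their values were seen. Of the pathway genes 8 had no probe set and 21 lay below the filter. The alternatives were other pseudocounts, filters and normalizations, other uses of a gene's probe sets, no variance trend, the line number as a block, and each array left out.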

Additional observations from a re-analysis of the deposited data

How the results depend on the processing

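With 1 value per gene, no member changed direction in its log2 difference except Eras and Nras with 1 array left out. Single probe sets differed in direction for Nras (0.07 for 1454060_a_at, against -0.17 for the brightest). They did so too for Shoc2 (0.04 for the dim probe set, against -0.59 for the bright one). The Mras difference was 1.97 with the mean of its probe sets and ran from 2.17 to 2.89 with 1 array left out. Eras ran from -0.12 to 0.49, and Nras from -0.35 to 0.01. Rras2 was at -0.51 with the mean of its probe sets and at -0.59 without KO line 2, where its other probe set was the brighter one. Shoc2 was at -0.28 with the mean of its probe sets, 1 of which lay below the filter level. Among pathway genes 0 were called higher in limma with centring, with the mean of probe sets and without the variance trend. The number called lower was 0 with no filter, with the lower 60% left out, with quantile normalization, with every probe set on its own and without the variance trend. At an unadjusted p under 0.05 the 3 settings with 0 called higher had 1 to 3 higher, and the 5 settings with 0 called lower had 6 to 10 lower. With 1 array left out 0 to 2 were called higher and 0 to 3 lower, with Rasgrp2, Dusp5 and Egr1 added without KO line 1, Zdhhc9 added without KO line 2, Spred3 lost without cKO line 1, and Tiam1 and Spred3 lost without cKO line 2. Over all genes, 69 were called higher and 171 lower. These counts were 42 and 105 with no filter, 43 and 86 with the mean of probe sets, and 3 and 25 without the variance trend. They were 266 lower with centring and 108 lower with the lower 60% left out, and with 1 array left out 74 to 115 higher and 122 to 323 lower. With the line number as a replicate block 431 genes were called higher and 617 lower, and among pathway genes 2 higher (Tiam1 and Spry4) and 8 lower (Spred3, Dusp4, Dusp5, Egr1, Ier3, Rap1b, Rasl11b and Zdhhc9, the last at an adjusted p = 0.0349). The labels do not pair the lines, though the deviations of same-numbered lines correlated across genes (r = 0.52), so the block was not used for the results above. Array signal near or under the filter level of 77.7 limits what can be said of Spred3 and of the dim Shoc2 probe set. The same holds for Dusp5, which read 23.2 in KO line 2.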

Other observations

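Several immediate targets of ERK differed between the lines numbered 1 and 2 within both groups, a pattern noted after the values were seen and not tested. Egr1, an early growth response factor, read 1560 and 423 in KO lines 1 and 2, against 2191 and 903 in cKO lines 1 and 2. Fos, an AP-1 subunit, read 306 and 102 in the KO lines, against 338 and 132 in the cKO lines. Dusp5, a nuclear ERK phosphatase, read 188 and 23.2 in the KO lines, against 452 and 130 in the cKO lines, and Dusp6 read 2307 and 1262 in the KO lines, against 2431 and 1920 in the cKO lines. All 4 genes were higher in line 1 than in line 2 within both groups, and all 4 were also lower in KO than in cKO between lines of the same number. None of the 4 was called for KO against cKO, but Egr1 and Dusp5 were called lower in KO with the line number as a block and without KO line 1. The order of line 1 over line 2 was shared by the second Mras probe set and, by a factor of 1.03 in KO and 1.66 in cKO, the brighter one. Eras showed no such order in KO, where line 2 was the higher one. Of the other tested genes of the list, Spry1, Spry4, Spred1, Spred2, Dusp4, Etv4, Etv5 and Myc shared the order, some by small margins. Spry2, Spred3, Ier3 and Fosl1 did not. Ier3 read 944 and 1464 in KO lines 1 and 2, against 1371 and 2095 in cKO lines 1 and 2. Fosl1 read 125 and 156 in the KO lines, against 244 and 181 in the cKO lines. The median signal of the arrays was also higher in line 1 than in line 2 within both groups. The deviations of same-numbered lines correlated over all genes (r = 0.52). The share of all genes with this order was not counted, and whether the order is particular to ERK targets was not tested.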
